A study of Homo sapiens with 6 samples.

Results

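The 8 genes described here were 7 kallikrein-related peptidases, KLK5, KLK6, KLK7, KLK8, KLK10, KLK11 and KLK13, and SPINK5, which encodes the inhibitor LEKTI. They were picked by symbol from the 27685 genes of the count table, and 7 of the 8 passed the filter on low counts. The cells were SZ95 sebocytes, an immortalized line made from human facial sebaceous gland cells with a viral large T antigen, so the libraries describe 1 cell line. In the 3 control samples the cells received the vehicle, 20% ethanol, and in the 3 PM2.5 samples they received fine particulate matter at 100 μg/mL, resuspended in the same vehicle, both for 24 h. Both groups had been grown in medium with 10% serum, EGF at 5 ng/mL and CaCl2 at 1 mM, and were treated in medium without phenol red. For the treatment medium only penicillin and streptomycin are listed as additions, not serum, EGF or CaCl2. Whether replicates were separate cultures is not stated in the sources used here, and p-values therefore measure only the spread between these samples, which may be technical.

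Kallikreins are secreted serine proteases that are made as inactive proforms and switched on by cleavage. In the epidermis KLK5 is a trypsin-like starter enzyme that can cleave its own proform and those of other kallikreins, and KLK7 is the chymotrypsin-like enzyme that helps to cut the junction proteins of the horny layer. LEKTI, a protein with many Kazal-type domains, binds and blocks several of these enzymes, and its loss causes Netherton syndrome, in which skin is shed too early.

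PM2.5-treated sebocytes held less mRNA of 4 of the 5 abundant kallikreins. KLK7 was 44.2% lower, KLK6 40.9% lower, KLK8 23.3% lower and KLK5 14.7% lower by group mean, and each of these passed the test. KLK13, at a low level, rose 2.20-fold. KLK10, the other abundant one, and KLK11 did not pass, and SPINK5 was close to absent, with 6 counts in all control libraries together and 0 in the PM2.5 libraries. Of the 8 genes, 4 were thus called lower and 1 higher at an adjusted p under 0.05 (edgeR's quasi-likelihood test, Benjamini-Hochberg over 16049 tested genes). Over all tested genes 22% were called lower and 21.7% higher, 43.6% in both directions together. Of all genes called, 49.7% were higher, or 65.2% with library size as the only scaling. In these bulk samples, fewer cells that make a transcript and less of it per cell cannot be told apart.

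Promoter sequences are shown for the pair with the largest falls, KLK7 and KLK6, for the KLK5 starter enzyme and for KLK13, which went the other way. All are RefSeq windows of 300 bases across an annotated start, on build GRCh38.p14, from the minus strand of chromosome 19 and written 5′ to 3′ along the gene. KLK7 is at chr19:50983868-50984167, KLK6 at chr19:50969542-50969841, KLK5 at chr19:50952989-50953288 and KLK13 at chr19:51065043-51065342. Capitals mark matches, on either strand, to GGGCGG, the GC box bound by SP1, and to GCGTG, the core that the aryl hydrocarbon receptor binds.
KLK7: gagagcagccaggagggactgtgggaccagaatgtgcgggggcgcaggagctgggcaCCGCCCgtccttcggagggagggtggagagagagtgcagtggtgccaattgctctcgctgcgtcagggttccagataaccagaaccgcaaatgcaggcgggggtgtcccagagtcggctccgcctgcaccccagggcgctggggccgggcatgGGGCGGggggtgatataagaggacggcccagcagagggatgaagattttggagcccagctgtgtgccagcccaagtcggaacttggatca
KLK6: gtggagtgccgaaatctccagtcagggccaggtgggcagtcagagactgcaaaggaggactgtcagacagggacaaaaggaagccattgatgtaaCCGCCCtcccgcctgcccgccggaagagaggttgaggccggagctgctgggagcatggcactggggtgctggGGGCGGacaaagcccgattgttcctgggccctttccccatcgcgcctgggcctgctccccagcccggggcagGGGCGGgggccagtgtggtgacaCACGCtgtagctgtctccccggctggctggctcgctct
KLK5: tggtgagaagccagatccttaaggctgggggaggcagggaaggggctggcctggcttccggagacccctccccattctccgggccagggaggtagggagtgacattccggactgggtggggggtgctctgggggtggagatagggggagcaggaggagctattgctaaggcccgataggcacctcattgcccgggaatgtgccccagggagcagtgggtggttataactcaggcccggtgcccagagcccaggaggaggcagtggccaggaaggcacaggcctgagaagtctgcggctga
KLK13: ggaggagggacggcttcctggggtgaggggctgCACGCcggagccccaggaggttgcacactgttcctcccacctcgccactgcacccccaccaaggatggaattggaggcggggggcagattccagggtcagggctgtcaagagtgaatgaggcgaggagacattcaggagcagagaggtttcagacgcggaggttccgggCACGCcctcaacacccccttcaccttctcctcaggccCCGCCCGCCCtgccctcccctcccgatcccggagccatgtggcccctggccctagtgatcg
The GCGTG core was matched 1 time in the KLK6 window, 2 times in the KLK13 window and not in those of KLK7 and KLK5. The KLK7 window held 2 matches to the GC box, the KLK6 window 3 and the KLK13 window 2, which overlap each other, while the KLK5 window had none. GCGTG occurs in 36.5% of the 35116 RefSeq promoter windows and GGGCGG in 45% of them, so either match is common. Including alternative starts, RefSeq windows were matched for 7 of the 8 genes, 12 windows in all, and the gene not matched was KLK8. TGANTCA (AP-1) was in none of the 12 and in 7.71% of all promoters. AACCNGTT (grainyhead-like factors) was in 1 of the 12, that of SPINK5, and in 1.73% of all, and TATAAA was in the same SPINK5 window alone and in 11.5% of all. These are matches of letters, not measured binding.

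Among the abundant members, KLK7 (gene ID 5650) stood at 163, 182 and 189 CPM in control replicates 1, 2 and 3 and at 93.1, 97.9 and 106 CPM in the PM2.5 replicates. CPM are counts scaled to the size of a library and its TMM factor, and every PM2.5 library lay below every control library. The group means were 178 ± 13.4 and 99.2 ± 6.77 CPM (SD, n = 3), a fitted log2 fold change of -0.84 with a standard error of 0.072 (adjusted p = 0.000141, edgeR).

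KLK6 (5653), a trypsin-like kallikrein also known from the nervous system as neurosin, was at 152, 150 and 160 CPM in control and 91.0, 81.9 and 100.2 CPM under PM2.5. The groups did not overlap here either. Its mean moved from 154 ± 5.07 to 91.0 ± 9.17 CPM, with a log2 fold change of -0.76 and a standard error of 0.074 (adjusted p = 0.000223, edgeR).

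KLK5 (25818) had 108, 114 and 125 CPM in control and 93.6, 101 and 101 CPM under PM2.5. The highest PM2.5 value was below the lowest control value, but the gap was narrow. The means were 116 ± 8.66 and 98.7 ± 4.43 CPM, and the log2 fold change was -0.23 with a standard error of 0.064 (adjusted p = 0.0213, edgeR). KLK5 lost its call with library size as the only scaling (log2 fold change -0.15, adjusted p = 0.0851) and without PM2.5 replicate 1 (-0.18, adjusted p = 0.0741). Over the 15 alternatives its log2 fold change ran from -0.28 to -0.15 and its adjusted p from 0.00435 to 0.0851.

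KLK8 (11202), also called neuropsin, is a trypsin-like enzyme of epidermis and brain. It was at 21.9, 22.1 and 20.6 CPM in control and 15.3, 17.6 and 16.7 CPM under PM2.5, again without overlap. Its log2 fold change was -0.38 with a standard error of 0.070 (adjusted p = 0.00344, edgeR), from 21.6 ± 0.811 to 16.5 ± 1.15 CPM. KLK6, KLK7 and KLK8 kept both their direction and their call in each of the 15 alternatives.

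KLK10 (5655), a family member first described as lost in breast tumour cells, split the PM2.5 group. Controls held 52.9, 58.5 and 51.7 CPM. PM2.5 replicates 1 and 3 held 27.6 and 28.7 CPM, and PM2.5 replicate 2 held 55.5 CPM, inside the control range. The log2 fold change was -0.54 with a standard error of 0.24 (adjusted p = 0.107, edgeR), which did not pass. Without PM2.5 replicate 2 it was -0.94 with a standard error of 0.077 (adjusted p = 0.000797) and was called. That library stood at least 1.5-fold above both other PM2.5 libraries for 59 of 14092 genes with a mean count of at least 50, or 0.419%. The same count was 34 to 58 genes for each of the other 5 libraries within its group. KLK10 ranked 27 among the 59, at 1.94 times the higher of the other PM2.5 values. A cause for the difference was not tested.

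**Figure D1:**
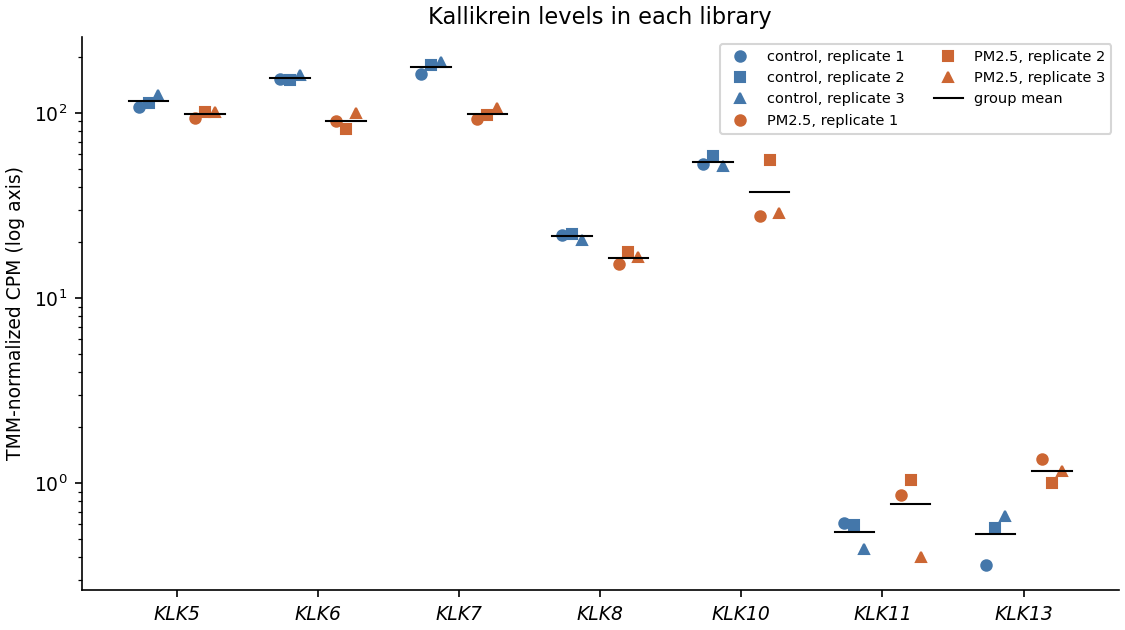
TMM-normalized CPM (log axis) of the 7 kallikreins in each library, with control in blue, PM2.5 in orange, a marker shape for each replicate and a line at the group mean. KLK6 and KLK7 separate the groups clearly, KLK10 in PM2.5 replicate 2 sits with the controls at 55.5 CPM, and KLK11 and KLK13 lie near or below 1 CPM.

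The remaining kallikreins were scarce. KLK13 (26085), a trypsin-like enzyme of stratified epithelia, had 22, 36 and 45 counts in the control libraries and 82, 74 and 67 in the PM2.5 libraries, or 0.361, 0.575 and 0.661 against 1.34, 1.00 and 1.16 CPM. All PM2.5 libraries were above all controls. The log2 fold change was 1.11 with a standard error of 0.24 (adjusted p = 0.00704, edgeR), and it kept its direction and call in each of the 15 alternatives.

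KLK11 (11012), also trypsin-like, had 37, 37 and 30 counts in control and 53, 77 and 23 under PM2.5. PM2.5 replicate 3 fell below the controls and the other two lay above them. The log2 fold change was 0.54 with a standard error of 0.34 (adjusted p = 0.239, edgeR). Without PM2.5 replicate 3 it was 0.83 with a standard error of 0.23 (adjusted p = 0.0303) and was called.

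SPINK5 (11005) had 2, 0 and 4 counts in the control libraries and 0, 0 and 0 in the PM2.5 libraries. A count of 0 allows up to 3 counts, which is 0.0407 to 0.0520 CPM depending on the library. Such floors cover counting error only. SPINK5 was not tested, and no fold is given since both groups were near or at the floor. With no filter on low counts its unadjusted p was 0.0792 and its adjusted p 0.167 (edgeR).

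**Figure D2:**
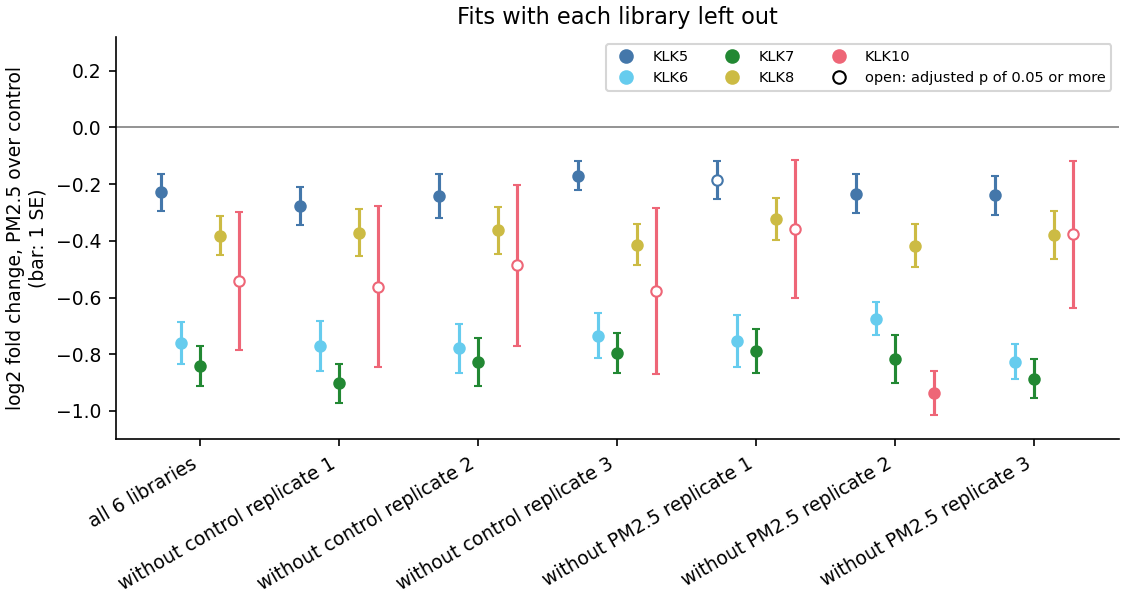
Log2 fold change (PM2.5 over control) of KLK5, KLK6, KLK7, KLK8 and KLK10 with all 6 libraries and with each library left out in turn. Bars are 1 standard error, and open points have an adjusted p of 0.05 or more. KLK10 is filled only without PM2.5 replicate 2, at -0.94, and KLK5 is open only without PM2.5 replicate 1, at -0.18.

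Added up, the 7 kallikreins took 499, 527 and 547 CPM in the control libraries and 323, 356 and 355 CPM in the PM2.5 libraries, 34.3% less by group mean (524 ± 24.3 and 345 ± 18.9 CPM). KLK5, KLK6 and KLK7 together made up 84.5% to 86.6% of that sum in control libraries and 78.9% to 86.8% in PM2.5 libraries. The low share of 78.9% was in PM2.5 replicate 2, the library with high KLK10.

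Levels of different genes were compared per kilobase of transcript, with the median length of the matched transcripts. In control cells KLK6 had 104 CPM per kilobase, KLK7 101, KLK5 82.3, KLK8 30.6, KLK10 18.1, KLK13 0.574 and KLK11 0.461. KLK6 and KLK7 overlapped between libraries, at 102 to 108 and 92.7 to 107, and so did KLK13 and KLK11, at 0.390 to 0.714 and 0.372 to 0.512. Under PM2.5, KLK5 came first with 70.2 CPM per kilobase, ahead of KLK6 with 61.6 and KLK7 with 56.5. Before division by length, KLK5 and KLK7 stood at 98.7 and 99.2 CPM there. Their order thus rests on the median lengths used, 1405 bases for KLK5 and 1756 for KLK7. Counts per gene do not show which transcripts the cells made. The library ranges of KLK5 and KLK6 overlapped there, at 66.6 to 72.1 and 55.4 to 67.8, and those of KLK6 and KLK7 did too, at 53.0 to 60.6 for KLK7.

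A ratio of counts within a library does not depend on the scaling between libraries. The KLK7 to KLK5 ratio was 1.51, 1.60 and 1.51 in control and 0.995, 0.966 and 1.05 under PM2.5, and the KLK6 to KLK5 ratio was 1.41, 1.32 and 1.28 against 0.973, 0.808 and 0.991. Both separated the groups completely, by -0.61 and -0.54 on the log2 scale. They restate the unequal falls of KLK7, KLK6 and KLK5 given above and are not separate evidence. None of the 7 ratios tested had been planned. Each had p = 0.1 in an exact two-sided permutation test, the smallest that 3 against 3 can give, or 0.14 adjusted over 7 ratios, so the design could not reach 0.05. KLK7 to KLK8 also separated, at 7.42, 8.20 and 9.14 against 6.07, 5.55 and 6.39 (exact permutation p = 0.1, adjusted 0.14). KLK7 to KLK6 overlapped, at 1.07 to 1.21 against 1.02 to 1.2 (exact permutation p = 0.4, adjusted 0.4), and KLK8 to KLK5 overlapped as well, with a log2 difference of -0.16 (exact permutation p = 0.2, adjusted 0.233).

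Across the 6 libraries the log2 CPM of KLK7 followed those of KLK6 (Pearson r = 0.98), KLK8 (0.93) and KLK5 (0.92), and less closely that of KLK10 (0.66). Of 13789 genes searched, MRRF (a mitochondrial ribosome recycling factor) and SPEN (a transcriptional corepressor) were among the 3 with patterns most like that of KLK7, each with r = 0.999. These correlations describe 6 points that share the difference between groups. No genes of like pattern are given for SPINK5, whose counts were too few.

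The kallikrein genes lie side by side on chromosome 19. Of the 16 KLK genes in the table, with the pseudogene KLKP1 among them, 10 were tested. Of these 10, 4 were called lower and 2 higher, against 22% and 21.7% of all tested genes. Both called higher were the weakly expressed KLK13 and KLK1 (3816), the tissue kallikrein that releases kinins from kininogen. KLK1 had 95, 102 and 137 counts in control and 147, 219 and 217 under PM2.5, a 1.76-fold rise by mean CPM (log2 fold change 0.80, standard error 0.19, adjusted p = 0.00992, edgeR). KLK9 (log2 fold change 0.76, adjusted p = 0.0792) and KLK14, a trypsin-like enzyme that KLK5 can activate (0.93, adjusted p = 0.0738), had all PM2.5 libraries above all controls but did not pass. KLK3, KLK12 and KLKP1 were at 0 in all libraries, and KLK2, KLK4 and KLK15 had too few counts to test.

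The sign of the change went with the level of expression. The 5 tested kallikreins with at least 10 CPM in control, from 21.6 CPM for KLK8 to 178 CPM for KLK7, all had negative log2 fold changes. The 5 below 10 CPM, from 0.136 CPM for KLK14 to 1.73 CPM for KLK1, all had positive ones. This split was drawn after the values were seen and carries no test. It used the control level itself, which favours positive changes among genes below 10 CPM, over all tested genes as well. KLK14 had 8, 10 and 8 counts in control and 17, 22 and 11 under PM2.5. It passed the filter on low counts only through its PM2.5 libraries, which favoured a positive sign. Among all tested genes, 55.1% of the 10298 genes with at least 10 CPM were negative and 60.7% of the 5751 below it were positive. In 4 kallikreins all PM2.5 libraries lay below all controls and in 4, KLK14 among them, above. Over all tested genes each of these held for 28.1%. The nearest tested genes outside the cluster, CLEC11A (log2 fold change 0.22, adjusted p = 0.376) and CTU1 (-0.02, adjusted p = 0.911), did not pass.

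**Figure D3:**
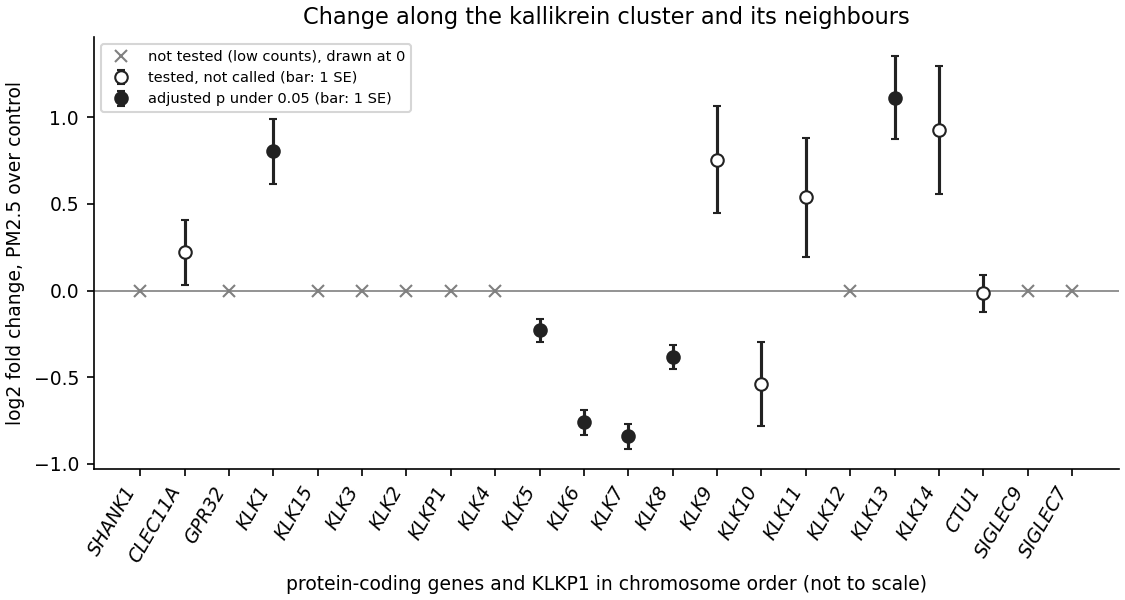
Log2 fold change (PM2.5 over control) of the kallikrein genes and their neighbours in chromosome order, not to scale. Bars are 1 standard error, filled points passed an adjusted p of 0.05, open points did not, and crosses mark untested genes drawn at 0. KLK5 to KLK10 lie below 0 apart from KLK9, while KLK1, KLK9, KLK11, KLK13 and KLK14 lie above it.

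In the GENCODE annotation no member shares exonic bases with another kallikrein. KLK5 shares 202 exonic bases (12.2%) and KLK6 401 (20.3%) with AC011483.2 on the opposite strand, KLK10 shares 240 (6.23%) with AC011473.2 on the opposite strand, and KLK8 shares 747 (40.1%) with AC011473.4 on its own strand. How reads of these stretches were assigned is not given in the sources used here, and KLK8 has the longest shared stretch.

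SPINK5 belongs to the Kazal-type inhibitors, whose genes partly lie together on chromosome 5. Of the 10 SPINK genes, SPINK6, SPINK9 and SPINK14 were at 0 in all libraries, and SPINK4, SPINK5, SPINK7, SPINK8 and SPINK13 had too few counts to test. SPINK1, a trypsin inhibitor best known from the pancreas, had 29, 44 and 56 counts in control and 26, 22 and 14 under PM2.5 (log2 fold change -1.06, standard error 0.31, adjusted p = 0.0247, edgeR). Its call was lost when any of 4 libraries was left out, control replicates 2 and 3 and PM2.5 replicates 2 and 3, with adjusted p up to 0.0856. SPINK2, an acrosin inhibitor of the testis, had 25, 42 and 39 counts in control and 88, 79 and 51 under PM2.5 (1.03, standard error 0.26, adjusted p = 0.0131).

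Other inhibitors were far more abundant than SPINK5. Of 12 listed, 7 were tested, 3 were called lower and 1 higher, with a median log2 fold change of -0.11 against 0.0042 over all tested genes. The shares called over all tested genes were 22% lower and 21.7% higher. SPINT1, the membrane inhibitor of matriptase, was at 861, 858 and 945 CPM in control and 610, 605 and 634 CPM under PM2.5, 30.6% lower with no overlap (log2 fold change -0.53, standard error 0.052, adjusted p = 0.000235, edgeR). SLPI, which inhibits elastase and KLK7, was at 174, 177 and 176 CPM in control and 137, 148 and 127 CPM under PM2.5 (log2 fold change -0.36, adjusted p = 0.00222).

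PI3 (elafin, an elastase inhibitor) was lower at 2.51 ± 0.559 and 1.43 ± 0.159 CPM (log2 fold change -0.81, adjusted p = 0.0107, edgeR), and SERPINA1 (alpha-1-antitrypsin) rose 1.29-fold (0.37, adjusted p = 0.00186). SPINT2, at 432 ± 6.33 and 402 ± 9.87 CPM, did not pass (-0.11, adjusted p = 0.0678). Vaspin (SERPINA12), SERPINA4, SERPINA5 and A2M were at 0 in all libraries. Counts of SPINT1 per count of KLK7 were 5.29, 4.73 and 5.01 in control and 6.55, 6.17 and 5.95 under PM2.5, and those of SLPI were 1.07, 0.972 and 0.931 against 1.47, 1.51 and 1.19, each with an exact permutation p = 0.1, or 0.14 adjusted.

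Of 11 proteases that activate kallikreins or act upstream of them, 7 were tested and 2 were called, both lower, and the median log2 fold change was -0.08. Among all tested genes 22% were called lower, 21.7% higher and 43.6% in either direction. ST14 (matriptase), which can activate the KLK5 proform, was at 564, 552 and 588 CPM in control and 444, 431 and 447 CPM under PM2.5, 22.4% lower (log2 fold change -0.37, standard error 0.043, adjusted p = 0.000477, edgeR). PLAT, the tissue plasminogen activator, was 79.9% lower, from 211 ± 18.6 to 42.5 ± 8.58 CPM (-2.32, adjusted p = 3.78e-05). PLAU (urokinase) was at 222 ± 5.46 and 222 ± 8.15 CPM (adjusted p = 0.988), and PRSS8 (prostasin) at 308 ± 6.90 and 292 ± 2.56 CPM (adjusted p = 0.156). Plasminogen (PLG) and CELA2A, also on this list, were at 0 in all libraries.

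Of 12 kallikrein substrates, 7 were tested and 3 were called, all higher, with a median of 0.15. Over all tested genes 21.7% were called higher, 22% lower and 43.6% in either direction. F2R, the thrombin receptor PAR1, rose 1.41-fold from 41.4 ± 1.69 to 58.5 ± 3.02 CPM (log2 fold change 0.50, adjusted p = 0.000444, edgeR), and IL1B, an inflammatory cytokine, rose 2.95-fold from 1.02 ± 0.260 to 3.02 ± 0.517 CPM (1.57, adjusted p = 0.000712). FLG, the horny-layer protein filaggrin, was at 3.45, 2.71 and 2.93 CPM in control and 7.18, 3.81 and 7.01 CPM under PM2.5 (0.97, adjusted p = 0.0127), and lost its call without PM2.5 replicate 1 (adjusted p = 0.0534). F2RL1, the receptor PAR2 that KLK5 can cleave, was at 108 ± 2.84 and 108 ± 0.876 CPM (adjusted p = 0.937). The junction protein corneodesmosin (CDSN) was at 1.3 ± 0.103 and 1.25 ± 0.181 CPM (adjusted p = 0.788). DSG1, FLG2 and CAMP, the cathelicidin that KLK5 processes, were at 0 in all libraries.

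**Figure D4:**
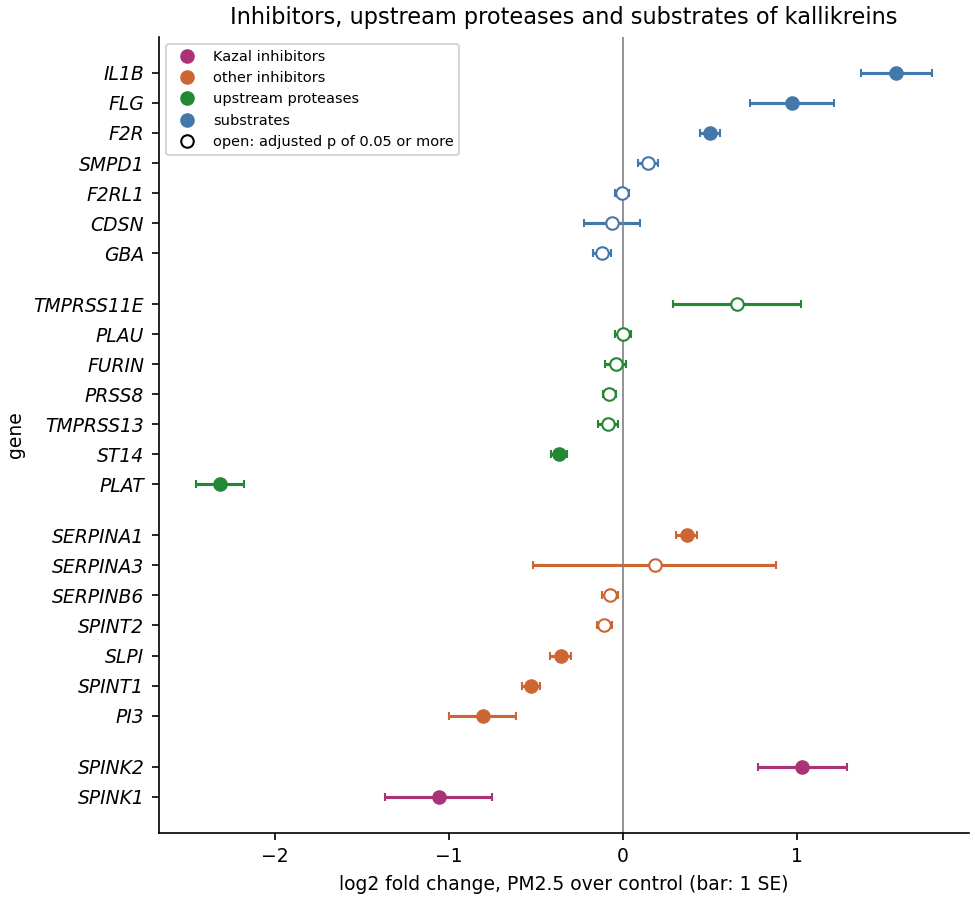
Log2 fold change (PM2.5 over control) of the tested Kazal inhibitors, other inhibitors, upstream proteases and substrates, with bars of 1 standard error and open points for an adjusted p of 0.05 or more. PLAT at -2.32 and IL1B at 1.57 lie farthest from 0, and the filled points are the genes called. Of 2 Kazal inhibitors 1 was called higher and 1 lower, and of 7 other inhibitors 1 higher and 3 lower. Called were also 2 of 7 upstream proteases and 3 of 7 substrates, where 43.6% of all tested genes were called.

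Of 19 receptors and factors linked to kallikrein transcription, 18 were tested, 11 were called lower and 2 higher, with a median of -0.31. The shares over all tested genes were 22% lower and 21.7% higher. GRHL3, a grainyhead-like factor of epidermal differentiation, fell 59.4% from 86.6 ± 10.5 to 35.1 ± 5.27 CPM (log2 fold change -1.3, adjusted p = 0.000199, edgeR). ELF3, an epithelial ETS factor, was at 1088, 1072 and 1121 CPM in control and 680, 632 and 746 CPM under PM2.5 (-0.67, adjusted p = 0.000204). The vitamin D receptor VDR (-0.68, adjusted p = 0.000163) and the retinoic acid receptor RARB (-1.16, adjusted p = 0.000153) were lower too. The estrogen receptor ESR2 (0.93, adjusted p = 0.0215) and TP63, a factor of basal epithelial cells (0.49, adjusted p = 0.0224), were called higher but lost the call in some of the fits with a library left out.

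Kallikreins are also made by differentiating keratinocytes, so markers of late keratinocyte differentiation were counted beside them. Of 20 such genes 10 were tested, 5 were called lower and 3 higher, against 22% and 21.7% of all tested genes. The summed level of the 20 was 210 to 237 CPM in control and 110 to 139 CPM under PM2.5. Involucrin (IVL), at 39.5 ± 7.76 CPM under PM2.5, made up much of the sum and was 64.6% lower than in control (standard error of the log2 fold change 0.14, adjusted p = 0.0002, edgeR). CALML5 (log2 fold change -1.41, adjusted p = 0.000402), TGM1 (-0.42, adjusted p = 0.00104) and KRT10 (-0.36, adjusted p = 0.00664) were lower too. SBSN (1.07, adjusted p = 0.00689) and SPRR1B (0.83, adjusted p = 0.00872), like FLG above, went the other way. KRT2 and DSG1 were at 0 in all libraries and KRT1 and LOR close to 0. The part of these genes in the kallikrein values was not tested.

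The sebocyte label was checked on 14 genes, of which 11 were tested, 5 were called higher and 2 lower. Shares over all tested genes were 21.7% higher and 22% lower. The 14 genes summed to 2692 to 2786 CPM in control and 3351 to 3794 CPM under PM2.5. KRT7, a keratin of glandular epithelia, and the mucin MUC1 were present and were the 2 called lower, KRT7 from 1411 ± 48.6 to 1030.5 ± 146 CPM (log2 fold change -0.45, adjusted p = 0.00617, edgeR) and MUC1 from 115 ± 1.21 to 104 ± 1.55 CPM (-0.14, adjusted p = 0.0242). The rise of the sum came mostly from the lipid synthesis genes FASN, from 404 ± 7.07 to 807 ± 55.3 CPM, and SCD, from 482 ± 50.7 to 1191 ± 39.8 CPM. AWAT1 and AWAT2, the wax synthases of mature sebaceous glands, were at 0 in all libraries and MC5R was at or near 0. Among markers of other cells, the fibroblast list summed to 48.0 to 52.5 CPM in control and 57.1 to 61.2 CPM under PM2.5. Most of the sum was COL1A1, at 43.6 ± 2.48 and 52.6 ± 2.24 CPM. COL1A2, COL3A1, DCN and PDGFRA were at or near 0. Of the 8 fibroblast genes 4 were tested, 2 were called higher and 1 lower. The immune list summed to 61.2 to 67.1 against 101.6 to 113 CPM, nearly all of it CD68, with CD3E at 0. Of its 8 genes 4 were tested, 2 were called higher (CD68 and CD8A) and 1 lower (LYZ). CD8A had 5, 5 and 16 counts in control and 24, 31 and 19 under PM2.5. It passed the filter on low counts only through its PM2.5 libraries, which favoured a call higher. CD8A lost its call in 5 of 14 alternatives and LYZ in 7 of 14. The melanocyte list, of which PMEL alone was tested (log2 fold change 0.10, adjusted p = 0.449), stood at 12.6 to 13.7 against 12.3 to 15.9 CPM, nearly all PMEL, with MLANA and TYR at 0. Of the 4 endothelial genes 3 were tested and 2 called lower. The endothelial list stood at 183 to 207 against 80.3 to 91.3 CPM, nearly all CDH5, with TEK at 0 in the control libraries. Their part in the kallikrein values was not tested.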

How the data were processed

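Polyadenylated RNA of SZ95 sebocytes was sequenced from 3 control and 3 PM2.5 samples. The authors deposited 1 table of raw read counts per gene, not normalized, with 1 column per library beside gene IDs and symbols. Build hg19 is named in the labels, as are DESeq2, HISAT2 2.0.5, Trimmomatic 0.32 and StringTie 1.3.3b. The way reads were counted and any use of strand are not given in the sources read here. A column name with 1 extra hyphen was read as PM2.5 replicate 1.

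Library totals were 56460553 to 71080000 counts. TMM factors were 0.964 to 0.980 in control and 1.02 to 1.04 in PM2.5 libraries. Libraries correlated at 0.995 to 0.996 within and 0.984 to 0.989 between groups (log2 CPM). filterByExpr (minimum count 10, minimum total 15) kept 16049 genes. Counts were fitted with edgeR 4.0.16 (R 4.3.3; glmQLFit, glmQLFTest, two-sided, treatment as the only factor) with Benjamini-Hochberg adjustment and a call at an adjusted p under 0.05. The script was tested on simulated data. Standard errors are the size of the log2 fold change over the square root of F. Levels are CPM without a prior count, as mean ± SD. Levels per kilobase used median lengths of GENCODE v29 transcripts matched by RefSeq accession. Ratios, which had not been planned, used an exact two-sided permutation test. Genes of like pattern were sought among tested genes with a mean of at least 1 CPM, by Pearson correlation of log2(CPM + 0.1).

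The members and the gene lists were chosen with earlier results of these data known. Genes named were all members, all other KLK and SPINK genes, up to 4 per direction of each list by smallest adjusted p, and genes that a member's result turns on. Some genes that this rule names are left out of the text. The ratio of summed kallikreins to SPINK5 had been planned but could not be formed, since SPINK5 was at 0 in 4 of 6 libraries. The 15 alternatives were DESeq2 1.42.0 (Wald test), limma-voom 3.58.1, edgeR's legacy fit, relative log expression, upper-quartile and library-size scaling, no filter, a mean count of at least 50, a block for the replicate number, and the omission of each library in turn.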

Additional observations from a re-analysis of the deposited data

How the results depend on the processing

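The counts of members called were 4 lower and 1 higher. With library size as the only scaling 3 were called lower, since KLK5 lost its call, and with the replicate block 5 were, since KLK10 gained it (log2 fold change -0.62, adjusted p = 0.0302). The block also ended the call of SPINK1 (-1.04, adjusted p = 0.0567). With a library left out, 3 to 5 members were called lower and 1 to 2 higher, the latter since KLK11 gained a call without PM2.5 replicate 3. Over all tested genes, 6999 were called in the fit reported and 5325 to 6753 with a library left out. Library size alone raised the share of called genes that were higher from 49.7% to 65.2%, with the median log2 fold change moving from 0.0042 to 0.086. Same-numbered libraries were not taken as pairs: their deviations from the group means correlated at -0.0301, 0.0897 and 0.11, and 2 of 3 control libraries correlated best with their own number. Of the genes whose groups hardly differed, F2RL1 changed sign with upper-quartile scaling (0.032), library size (0.076), no filter (0.0055) and the mean count filter (0.013), and ran from -0.023 to 0.015 with a library left out. PRSS8 changed sign with library size (0.0048), and CDSN with library size (0.021), running from -0.12 to 0.081 with a library left out. These 3 genes were not called under any alternative. KLK11, KLK13 and SPINK5 rest on few counts. The ratio to SPINK5 and its alternatives could not be computed.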

Other observations

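All 10 other listed proteases of skin were tested, and 6 were called lower and 2 higher, against 22% and 21.7% of all tested genes. Their median log2 fold change was -0.29 against 0.0042 over all tested genes. CTSH, a lysosomal aminopeptidase, was at 1017, 998 and 1153 CPM in control and 617, 642 and 702 CPM under PM2.5, with no overlap (log2 fold change -0.69, adjusted p = 0.000276, edgeR). CTSC, which activates granule serine proteases of immune cells, moved from 119 ± 2.54 to 78.4 ± 1.09 CPM (-0.61, adjusted p = 6.33e-05), and the secreted serine protease HTRA1 from 45.5 ± 3.76 to 28.2 ± 1.07 CPM (-0.69, adjusted p = 0.000268). The lysosomal cysteine protease CTSL went the other way, 1.74-fold higher, from 67.4 ± 2.86 to 118 ± 17.1 CPM (0.80, adjusted p = 0.000566), and so did the lysosomal peptidase TPP1 (0.23, adjusted p = 0.00965).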
